A study of Mus musculus with 2 samples.

Results

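The colony-stimulating factor family was followed through brain cells of mice that model neuromyelitis optica spectrum disorder (NMO in the labels), an antibody-driven inflammatory disease of the optic nerve, spinal cord and brain. The 8 genes, Csf1, Il34, Csf2 and Csf3 for the ligands and Csf1r, Csf2ra, Csf2rb and Csf3r for the receptor chains, were chosen by symbol among the 32285 genes of the count tables. Both libraries came from C57BL mice aged 8 to 13 weeks at 24 h of the model. A CD45-positive library (leukocytes and microglia, which carry this surface protein) was set against a CD45-negative library. The sources used here do not give the induction of the model, the number of mice behind a library or the means of separating the subsets. No untreated library was analysed here. Every level below therefore describes dissociated cells at 24 h, not a response to the model.

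Colony-stimulating factors are secreted proteins that keep myeloid cells alive, let them divide and steer their maturation. Csf1 and Il34 both bind Csf1r, the receptor tyrosine kinase on which microglia depend for survival. Csf2 acts on granulocytes, monocytes and dendritic cells through the alpha chain Csf2ra and the signalling beta chain Csf2rb, while Csf3 drives neutrophil production and release through Csf3r.

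The CD45-positive library held 8432 kept cells with a median of 6088.5 UMIs (unique molecular identifiers, each counting 1 captured transcript), and the CD45-negative library held 12817 kept cells with a median of 5412 UMIs. Kept cells summed to 73960481 UMIs in the CD45-positive and 82577080 UMIs in the CD45-negative library. In all, 27 cell barcodes occurred in both libraries, and leaving them out changed none of the calls between libraries given below. Cells were clustered without the family's genes and named from marker lists. Clusters with 1434 CD45-positive and 540 CD45-negative cells stayed unnamed and are called by their leading genes. Levels are CPM, the UMIs of a gene scaled to the total UMIs of the cells summed. With 1 library per group there was no replicate check and no test, and all intervals are exact 95% intervals that cover counting error only. Where a count was 0, the limit given is the level or share of cells that 3 counts would give, and a share so limited is of cells with a captured UMI, not of cells that express the gene. The intervals do not cover UMIs that pile up in a few cells, which matters for Csf2 and Csf3 and for classes of few cells.

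The receptor chains lay on the CD45-positive side and most ligand transcripts on the CD45-negative side. With a 4-fold difference as the call, 5 of the 8 genes were higher in the CD45-positive library: all 4 receptor chains and the ligand Csf2. Among all 18379 genes with at least 20 UMIs, 9.88% were called higher. The ligands Il34 and Csf3 were called lower in the CD45-positive library, as were 29.7% of all genes, so the number lower was close to that background. Csf1 was lower in the CD45-positive library by less than the 4-fold limit. All 8 genes passed the minimum of 20 UMIs.

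Csf1r, the receptor of Csf1 and Il34, stood at 1159 CPM (1151 to 1166) in CD45-positive and 21.2 CPM (20.2 to 22.2) in CD45-negative cells, a 54.7-fold difference (52.2 to 57.4). It was detected in 65.0% of CD45-positive cells, against 1.51% of CD45-negative cells. Csf2rb, the beta chain of the Csf2 receptor, had 98.9 CPM against 2.52 CPM, 39.2-fold higher in CD45-positive cells (34.2 to 45.3). These were the widest gaps among the receptor chains, and Csf1r was the only member of the family found in most CD45-positive cells.

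Csf3r, the Csf3 receptor, had 80.9 CPM in CD45-positive and 3.26 CPM in CD45-negative cells (24.8-fold, 22.0 to 28.2). Csf2ra, the alpha chain that binds Csf2, had 108.5 CPM in CD45-positive and 14.5 CPM in CD45-negative cells, and its 7.46-fold difference (7.02 to 7.93) was the smallest among the receptor chains. Csf2ra was the receptor gene most widely met outside the CD45-positive library, in 7.33% of CD45-negative cells. All 4 receptor chains were detected together in 1166 CD45-positive cells (13.8%) and 34 CD45-negative cells (0.265%). No receptor chain was detected in 28.4% of CD45-positive cells, against 91.4% of CD45-negative cells.

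Among the ligands, Csf1 had 37.0 CPM (35.6 to 38.4) in CD45-positive and 85.2 CPM (83.2 to 87.2) in CD45-negative cells, 2.30-fold lower in CD45-positive cells (2.20 to 2.41). Il34 had 21 UMIs in 12 CD45-positive cells and 2976 UMIs in 1309 CD45-negative cells, 127-fold lower in CD45-positive cells (82.9 to 205). Csf1 was thus shared by both libraries, and Il34 was almost wholly CD45-negative. Csf3 had 5 UMIs in 3 CD45-positive cells and 409 UMIs in 58 CD45-negative cells, 73.3-fold lower in CD45-positive cells (31.1 to 227). Csf2 had 730 UMIs in 109 CD45-positive cells and 0 in the 12817 CD45-negative cells, which allows a level of up to 0.0363 CPM (3 UMIs over the library), so it was at least 272-fold higher in CD45-positive cells. Exactly 1 ligand was detected in 14.5% of CD45-positive cells, against 37.0% of CD45-negative cells. The 1707 CD45-negative barcodes removed by the cell filters held no Csf2 UMI either.

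**Figure D1:**
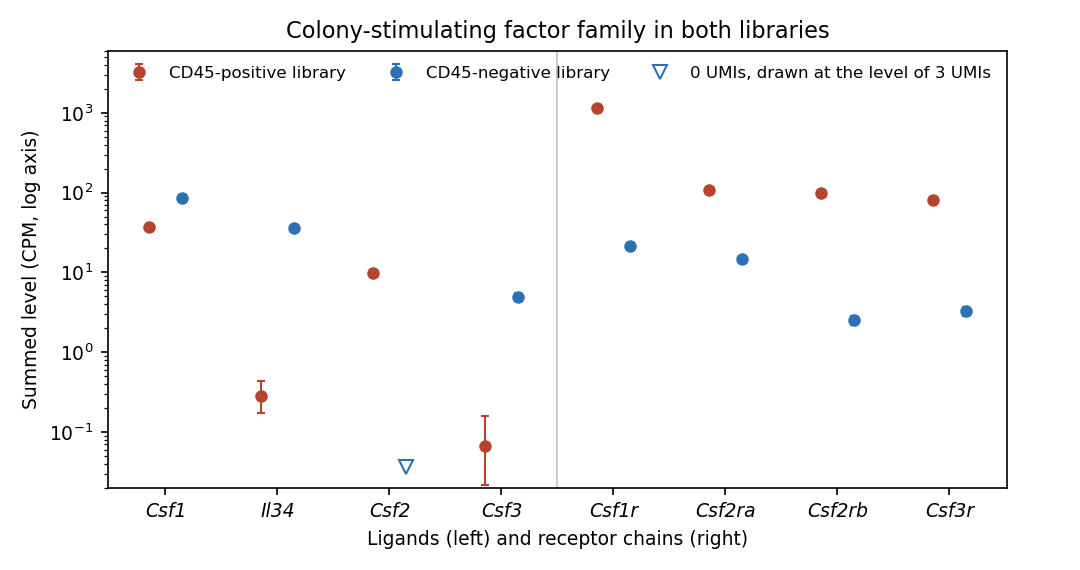
Summed level of each gene (CPM, log axis) in the CD45-positive library (red, left of each pair) and the CD45-negative library (blue), with exact 95% Poisson intervals as bars and 0 UMIs drawn as an open triangle at the level of 3 UMIs. All 4 receptor chains and Csf2 lie higher in the CD45-positive library, and Csf1, Il34 and Csf3 lie lower there.

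Csf1r lies on chromosome 18 (mm10, 61100598 to 61132149, plus strand) and overlaps Hmgxb3 on the opposite strand. In the CD45-positive library, 69.2% of its UMIs came from microglia-like cells, where it had 1669 CPM (1655 to 1682) and was detected in 2981 of 3139 cells. Among named classes the order below microglia-like cells was neutrophil-like (1071 CPM), monocyte-like (525 CPM), dendritic cell-like (223 CPM) and plasmacytoid dendritic cell-like (169 CPM), each pair of neighbours apart by more than counting error. Several unnamed myeloid clusters lay as high as the microglia-like cells. The cluster led by Gm43221 and Mlxipl, whose 743 cells had a median of only 1337 UMIs, had 2145 CPM, and those led by Acod1 and Il1f9, by S100a8 and S100a9, by Clec4d and Il1rn, and by Arg1 and Lyz2 had 1813, 1805, 1647 and 1316 CPM. These clusters carried markers of more than 1 class or low UMI counts with microglia markers.

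Csf1r was also detected in 25.8% of T cell-like cells (74.8 CPM), 29.3% of NK cell-like cells (78.4 CPM) and 30.4% of the type 2 innate lymphoid-like cells (56.4 CPM), lymphocytes that normally lack this receptor. For every 1000 UMIs of 10 microglia markers, such as Tmem119 and P2ry12, there were 128 Csf1r UMIs in T cell-like, 136 in NK cell-like and 132 in type 2 innate lymphoid-like cells, beside 129 in microglia-like cells themselves. Csf1r in lymphocytes thus stood to microglia markers as it did in microglia-like cells, and these levels serve here as the background of the CD45-positive library. The neutrophil-like class had 135 by the same count and 7917 CPM of summed microglia markers, beside 12974 CPM in microglia-like cells, so its Csf1r level moved with microglia transcripts. The part of free RNA or of cells caught together in it was not tested. Monocyte-like cells with 329 and dendritic cell-like cells with 190 Csf1r UMIs per 1000 marker UMIs lay above the microglia ratio.

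In the CD45-negative library Csf1r was nearly confined to the few myeloid cells present. Microglia-like cells had 1550 CPM (1449 to 1656) in 87 cells and held 50.3% of the library's Csf1r UMIs, and 25 neutrophil-like cells held a further 155 UMIs. Endothelial-like cells, taken as a class that lacks the receptor, had 1.54 CPM with a UMI in 10 of 1428 cells at a median depth of 4454.5 UMIs. Astrocyte-like, oligodendrocyte-like, pericyte-like, neuroblast-like and choroid plexus epithelial-like cells had between 1.25 and 2.23 CPM, and no pair of neighbours in that order differed by more than counting error. Csf1r was not detected in 90 fibroblast-like or 160 smooth muscle-like cells, so that up to 3.33% and 1.88% of such cells could have a UMI.

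**Figure D2:**
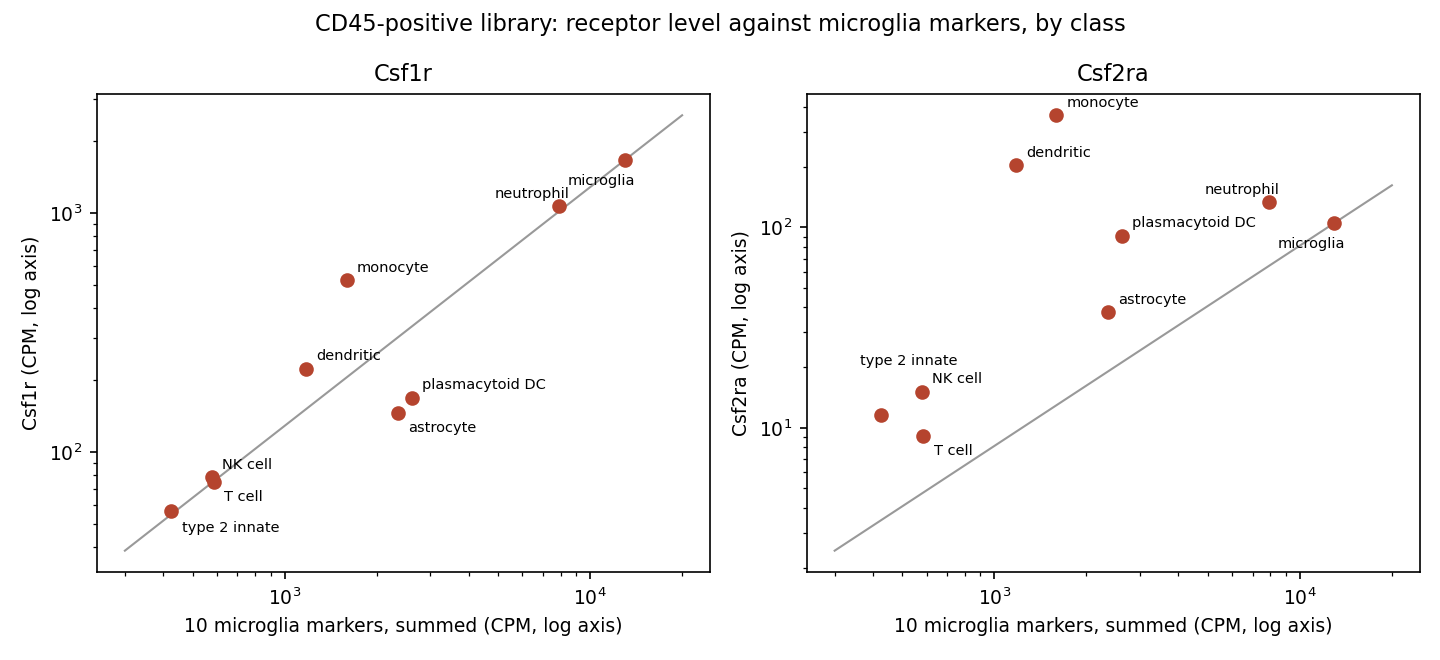
Level of Csf1r (left) and Csf2ra (right) against the summed level of 10 microglia markers (both CPM, log axes) in the named classes of the CD45-positive library, with a grey line at the ratio found in microglia-like cells. For Csf1r the T cell-like, NK cell-like, type 2 innate lymphoid-like and neutrophil-like classes lie on the line at 128 to 136 UMIs per 1000 marker UMIs. For Csf2ra monocyte-like and dendritic cell-like cells lie far above the line. The other classes except microglia-like cells lie above it by less, from 15.5 in T cell-like to 34.9 in plasmacytoid dendritic cell-like cells.

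Csf2ra, the Csf2-binding alpha chain (chromosome 19, 61223957 to 61228429, minus strand), was highest in monocyte-like cells at 363 CPM (335 to 393), detected in 84.8% of 198 cells. Among named classes, dendritic cell-like cells followed at 204 CPM (73.7% of 407 cells), neutrophil-like cells at 134 CPM, microglia-like cells at 105 CPM (54.0% of cells) and plasmacytoid dendritic cell-like cells at 91.1 CPM. Monocyte-like cells lay above dendritic cell-like cells, and the microglia-like and plasmacytoid dendritic cell-like levels did not differ beyond counting error (ratio 1.16, 0.868 to 1.58). The unnamed cluster led by Gm43221 and Mlxipl, of low depth, had 279.9 CPM and lay between monocyte-like and dendritic cell-like cells, and that led by Arg1 and Lyz2 had 194 CPM. T cell-like cells, the background, had 9.10 CPM in 4.15% of cells. Against microglia markers the alpha chain had 228 UMIs per 1000 marker UMIs in monocyte-like and 174 in dendritic cell-like cells, beside 8.12 in microglia-like cells. Both receptors thus lay above the microglia ratio in these classes, Csf2ra by more than Csf1r. Lymphocytes lay close to that ratio for Csf1r but above it for Csf2ra. T cell-like cells had 15.5, NK cell-like cells 26.2 and type 2 innate lymphoid-like cells 27.2 Csf2ra UMIs per 1000 marker UMIs. Lying above the ratio therefore does not by itself mark a class that carries the alpha chain.

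Csf2rb, the beta chain (chromosome 15, 78325752 to 78353847, plus strand), was spread more evenly over myeloid cells. Neutrophil-like cells had 209 CPM (181 to 241), plasmacytoid dendritic cell-like cells 192 CPM, monocyte-like cells 187 CPM and dendritic cell-like cells 184 CPM, and no neighbours among these differed by more than counting error. The neutrophil-like class also carried many microglia transcripts, as given for Csf1r. Their part in its Csf2ra and Csf2rb levels was not tested. Under a stricter cell filter 0 cells were named neutrophil-like, and dendritic cell-like cells were highest for Csf2rb at 191 CPM. Microglia-like cells had 101 CPM (98.1 to 105), detected in 52.4% of cells, and held 49.3% of the library's UMIs. T cell-like cells had 5.78 CPM in 2.58% of cells. Named myeloid classes were thus far above lymphocytes. They lay close to each other except for microglia-like cells, which were lowest among them. Among dendritic cell-like clusters Csf2rb had 243 CPM in the Ccr7 cluster of 67 cells, 200.4 CPM in the Clec10a cluster of 256 cells and 116 CPM in the Clec9a-bearing cluster of 84 cells, which was also lowest for Csf1r with 53.1 CPM beside 222 CPM in the Ccr7 and 300.0 CPM in the Clec10a cluster.

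Its neighbour Csf2rb2 encodes the beta chain that in mice serves interleukin 3 alone, and was added because the genes resemble each other. Of the 31-base words of annotated Csf2rb transcripts, 26.2% also occur in Csf2rb2, and 20.2% of those within the last 500 bases. In the other direction, 29.0% of Csf2rb2 words occur in Csf2rb, but only 5.32% of those within its last 500 bases. Reads could therefore be shared, and both levels are uncertain where the genes occur together. Csf2rb2 had 36.6 CPM in CD45-positive and 0.727 CPM in CD45-negative cells (50.3-fold, 39.0 to 66.1). It had 194 CPM (158 to 236) in plasmacytoid dendritic cell-like cells, 69.1 CPM in monocyte-like, 66.0 CPM in neutrophil-like, 61.2 CPM in dendritic cell-like and 38.6 CPM in microglia-like cells. Csf2rb2 was thus 2.80-fold higher in plasmacytoid dendritic cell-like than in monocyte-like cells (2.12 to 3.70), whereas Csf2rb was not (ratio 1.03, 0.810 to 1.29).

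Both chains of the Csf2 receptor were detected in the same cell in 1092 of 3139 microglia-like, 217 of 407 dendritic cell-like, 107 of 198 monocyte-like and 47 of 140 neutrophil-like cells, and in 4 of 2361 T cell-like cells. The part of microglia transcripts in the neutrophil-like number was not tested. In microglia-like cells Csf2rb was found in 64.5% of cells with Csf2ra and in 38.3% of cells without it. Depth moved with this: cells with Csf2ra had a median of 12061 UMIs and those without it 6637 UMIs. Its part in the joint detection was not tested.

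In non-myeloid classes of the CD45-negative library Csf2ra was seldom found with its partner, whereas 14 of the 22 microglia-like cells with Csf2ra there also had Csf2rb. Astrocyte-like cells held 45.1% of the library's Csf2ra UMIs at 18.7 CPM (17.2 to 20.3), with a UMI in 464 of 5247 cells (8.84%), and Csf2rb was detected in 1 of those 464 cells. Neuroblast-like cells had 16.4 CPM, not separable from astrocyte-like cells (ratio 1.14, 0.953 to 1.36), and oligodendrocyte-like cells 8.73 CPM. Endothelial-like cells, taken as the background for receptor chains, had 3.23 CPM with a UMI in 1.47% of cells. After each cell was thinned to 1000 UMIs, Csf2ra was found in 1.63% of astrocyte-like and 0.549% of endothelial-like cells. Csf2rb in astrocyte-like cells was at 5 UMIs in all, 0.172 CPM, below the 2.15 CPM of endothelial-like cells. Endothelial-like cells were, however, the highest non-myeloid class of at least 50 cells for Csf2rb, with a UMI in 12 of 1428 cells. Pericyte-like cells had 0.254 CPM and neuroblast-like cells 0.202 CPM. The endothelial-like level is therefore no plain background for the beta chain.

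Csf3r, the receptor of Csf3 (chromosome 4, 126024550 to 126044440, plus strand), was highest in neutrophil-like cells at 491 CPM (448 to 538), detected in 72.1% of 140 cells and in 40.6% after thinning. Microglia-like cells had 82.3 CPM (79.3 to 85.3) in 46.9% of cells and, being numerous, held 48.8% of the library's UMIs. Monocyte-like cells had 63.1 CPM, plasmacytoid dendritic cell-like cells 19.4 CPM and dendritic cell-like cells 12.2 CPM. Plasmacytoid and other dendritic cell-like cells did not differ beyond counting error, and T cell-like cells marked the background at 6.89 CPM in 3.01% of cells. The level depends on how the class was drawn: it was 252 CPM in 424 cells when each library was clustered alone. No cell was named neutrophil-like under a stricter cell filter, and 36 cells, too few for a level, were at clustering resolution 0.5, so that microglia-like cells were then highest with 82.4 and 82.1 CPM. Per 1000 microglia-marker UMIs it had 62.0 UMIs in neutrophil-like and 6.34 in microglia-like cells. In the CD45-negative library 25 neutrophil-like cells held 152 of 269 Csf3r UMIs (659 CPM, a class below the minimum of 50 cells), microglia-like cells had 52.9 CPM, and the other classes of at least 50 cells at most 0.403 CPM.

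Promoter sequence was read for the receptor genes because their transcripts were higher together in myeloid classes. RefSeq windows of 300 bases on GRCm38.p6, 250 before to 50 after the gene start, were found for 5 of 9 names (the 8 genes and Csf2rb2), 3 of them receptor genes. The windows were searched for GAGGAAG on both strands, a core recognised by the myeloid factor PU.1, the product of Spi1, with the letters chosen after the levels were known. All 3 receptor windows held a match, the 2 ligand windows (Csf1 and Csf2) held 0, and 13.6% of 32851 windows in the table hold one. A second pattern, a loose form of the NF-kappa-B motif (GGGA and TCC with 3 free bases between), was also searched on both strands and matched 1 ligand window, that of Csf1, 1 receptor window, that of Csf3r, and 4.59% of the windows in the table. The match of this second pattern in the Csf3r window is left in lower case below, and the Csf1 window is not printed. Capitals mark only the matches of the first pattern, which are counted next. Csf2ra (chr19:61228369-61228668, minus strand) has 2 overlapping matches as written, Csf3r (chr4:126024409-126024708, plus strand) has 1, and Csf2rb2 (chr15:78305672-78305971, minus strand) has 2 on the other strand, read as CTTCCTC.
Csf2ra: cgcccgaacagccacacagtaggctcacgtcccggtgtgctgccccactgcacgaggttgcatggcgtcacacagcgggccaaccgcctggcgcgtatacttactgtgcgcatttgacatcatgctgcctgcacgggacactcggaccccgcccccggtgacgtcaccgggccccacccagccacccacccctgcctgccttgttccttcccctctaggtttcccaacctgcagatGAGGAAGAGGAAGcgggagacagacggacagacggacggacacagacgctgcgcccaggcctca
Csf3r: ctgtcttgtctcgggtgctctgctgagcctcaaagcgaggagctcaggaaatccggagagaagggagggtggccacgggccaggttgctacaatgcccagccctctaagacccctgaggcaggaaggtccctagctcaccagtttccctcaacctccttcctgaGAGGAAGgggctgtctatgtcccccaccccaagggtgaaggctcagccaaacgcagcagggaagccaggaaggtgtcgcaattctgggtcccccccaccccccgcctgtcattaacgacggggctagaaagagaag
Csf2rb2: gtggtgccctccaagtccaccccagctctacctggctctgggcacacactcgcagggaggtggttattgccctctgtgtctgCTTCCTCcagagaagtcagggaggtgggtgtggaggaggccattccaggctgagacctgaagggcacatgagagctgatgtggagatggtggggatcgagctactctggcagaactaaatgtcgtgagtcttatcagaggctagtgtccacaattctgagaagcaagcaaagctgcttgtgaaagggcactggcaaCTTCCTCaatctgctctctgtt
A match is a description of letters and not a binding site, and no binding was measured here. Across 18 named classes of the 2 libraries Spi1 itself was among the 5 genes most like Csf2rb (Pearson r 0.98 of log2(CPM + 1), 14405 genes compared). Csf2rb had no promoter window here, and Spi1 was not among the 5 genes most like Csf2ra or Csf3r, whose windows matched. The correlation is a description with no test, in which classes of 1 library share depth and free RNA. It says nothing about the matches.

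**Figure D3:**
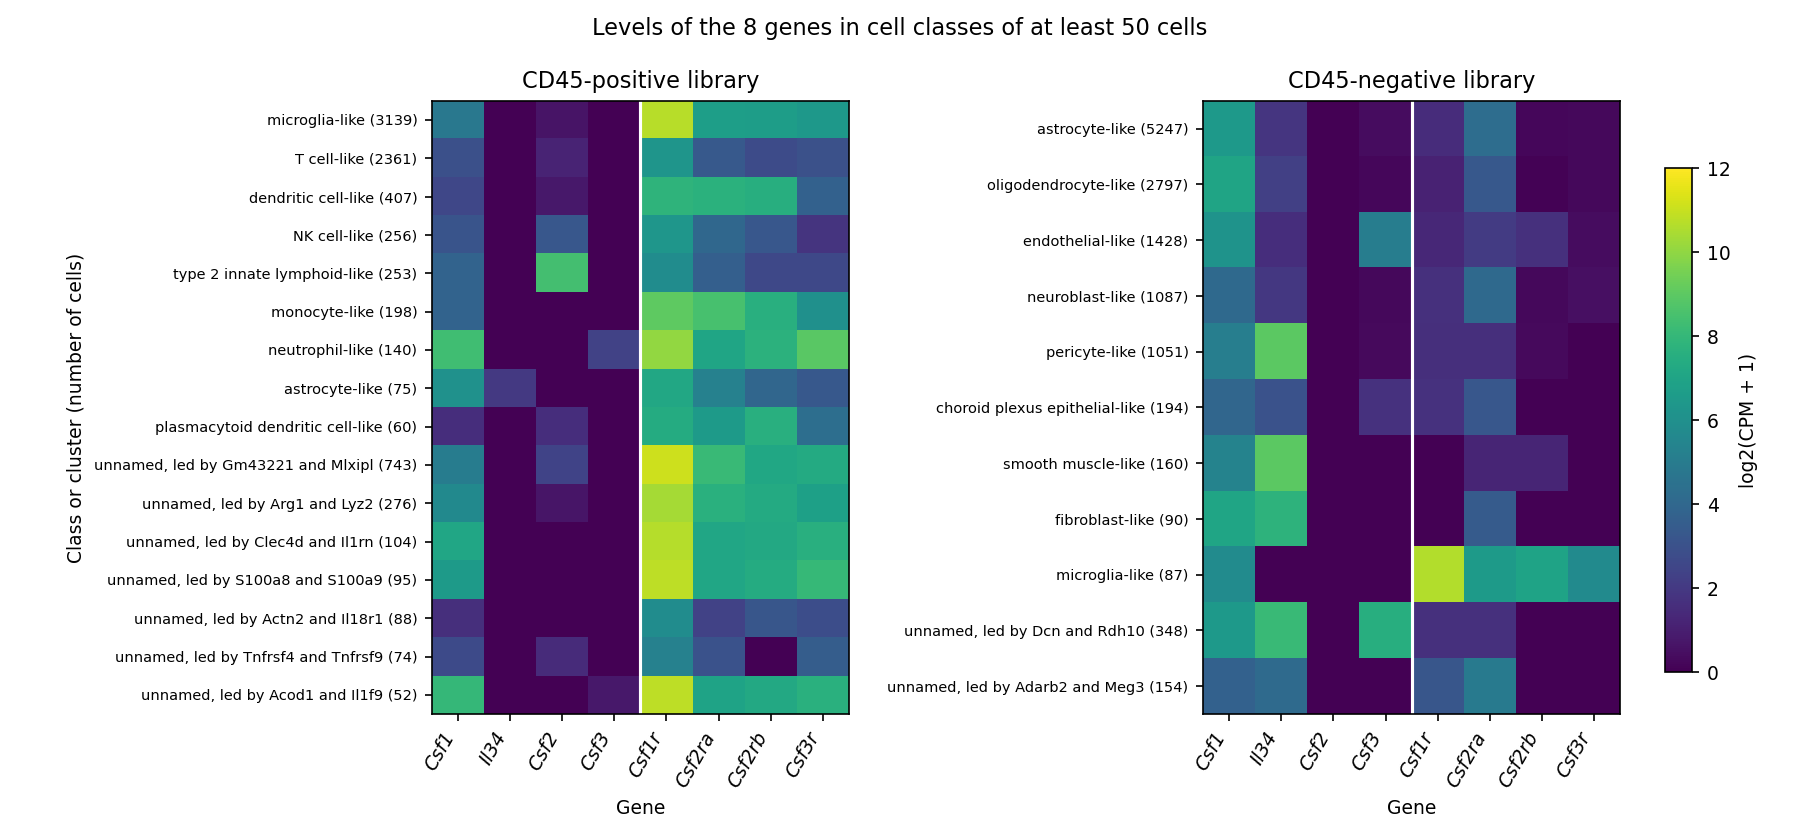
Level of the 8 genes as log2(CPM + 1), from dark (0) to yellow (12), in classes and unnamed clusters of at least 50 cells in the CD45-positive library (left) and the CD45-negative library (right), ligands left and receptor chains right of the white line. Receptor chains fill the myeloid rows and the microglia-like row, Il34 fills the pericyte-like and smooth muscle-like rows, and Csf2 stands out in a single row at 338 CPM.

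Csf1, the ligand with the widest reach (chromosome 3, 107741048 to 107760469, minus strand), came from most non-immune classes. Oligodendrocyte-like cells had 126 CPM (122 to 130), were positive in 56.5% of 2797 cells and held 47.2% of the CD45-negative library's Csf1 UMIs. Fibroblast-like cells had 134 CPM (104 to 170) in 90 cells, not beyond counting error of the oligodendrocyte-like level (ratio 1.06, 0.821 to 1.35). Astrocyte-like cells had 85.4 CPM (82.1 to 88.9) and held 35.2% of the UMIs, endothelial-like cells had 71.8 CPM, and pericyte-like cells 34.3 CPM. Oligodendrocyte-like cells were thus the main source by share, and astrocyte-like cells lay above endothelial-like cells by 1.19-fold (1.08 to 1.32). Neuroblast-like cells, taken as a background class, had 16.4 CPM with a UMI in 130 of 1087 cells at a median depth of 7982 UMIs, and in 1.48% after thinning, beside 11.6% of thinned oligodendrocyte-like cells.

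Csf1 varied inside the glial classes. Among oligodendrocyte-like clusters it had 166 CPM in the cluster led by Kndc1, 126 CPM in that led by Srxn1 and 121 CPM in that led by Grb14 and Mog. Among astrocyte-like clusters it had 103 CPM in the cluster led by Dio2, 99.6 CPM in the reactive one led by Ptx3 and Tgm1, 88.5 CPM in the one led by Agt, 75.1 CPM in the one led by Cspg5 and 44.2 CPM in the one led by Aldoc and Mt3. The reactive cluster was thus not set apart by its Csf1 level. Csf1 was also found in 46 ependymal-like cells at 161 CPM, a class below the minimum size.

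In the CD45-positive library Csf1 was highest in neutrophil-like cells at 315 CPM (281 to 353), with a UMI in 57.9% of 140 cells and in 28.1% after thinning. This class had been listed as lacking Csf1, and the data go against that, with the limits on the class given for Csf3r. The unnamed clusters led by Acod1 and Il1f9, by Clec4d and Il1rn, and by S100a8 and S100a9, which carry neutrophil and microglia markers alike, had 252, 135 and 91.7 CPM. Neutrophil-like cells lay above the highest of these by 1.25-fold (1.07 to 1.46), and each lay above the next by more than counting error. Microglia-like cells had 26.9 CPM (25.2 to 28.7) and held 34.9% of the UMIs, monocyte-like cells had 13.2 CPM, and T cell-like cells 6.72 CPM in 2.88% of cells.

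Within the neutrophil-like class the cluster led by Il1f9 and Slpi (61 cells) had 521 CPM of Csf1 and 229 CPM of Csf1r, and the cluster led by S100a9 (79 cells) had 263.5 CPM of Csf1 and 1283 CPM of Csf1r. Homeostatic microglia transcripts summed to 1235 CPM in the cluster led by Il1f9 and Slpi and to 6570 CPM in the cluster led by S100a9. Csf1 was thus higher where microglia transcripts were fewer, while Csf1r was lower there. Csf3r had 427 CPM in the cluster led by Il1f9 and Slpi and 507 CPM in the cluster led by S100a9. Within microglia-like cells Csf1 had 57.3 CPM in the cluster led by Tnf and Atf3, 25.2 CPM in that led by Gpr34 and P2ry12, and 18.0 CPM in that led by Saa3 and Marco. The first of these had 8152 CPM of early-response transcripts such as Fos and Atf3, which dissociation at 37 °C can induce, beside 903 and 640 CPM in the other clusters. That list holds Atf3, Egr1 and Ier2, which lead this cluster, so the sum restates how the cluster was set apart. The part of early-response transcripts in its Csf1 level was not tested.

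Receptor levels also differed between microglia-like clusters. Csf1r had 2001 CPM in the cluster led by Gpr34 and P2ry12, 1889 CPM in that led by Tnf and Atf3, and 1007 CPM in that led by Saa3 and Marco. The Saa3 cluster was also lowest for Csf2ra (80.6 CPM), Csf2rb (65.9 CPM) and Csf3r (39.7 CPM), where the Gpr34 cluster had 116, 117 and 101 CPM. All 4 receptor chains were thus lower in the Saa3 cluster, which had 5252 CPM of homeostatic and 10617 CPM of activated microglia transcripts, beside 10848 and 4744 CPM in the Gpr34 cluster. The activated list holds Saa3 and Ccl12, which lead the Saa3 cluster. The homeostatic list holds Gpr34, P2ry12, Siglech, Tmem119 and Olfml3, which lead the Gpr34 cluster. The sums therefore restate how the clusters were set apart and are no separate support. The name of the Saa3 cluster rests on a small margin, with microglia markers only 0.52 above other clusters on the mean log2 scale.

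**Figure D4:**
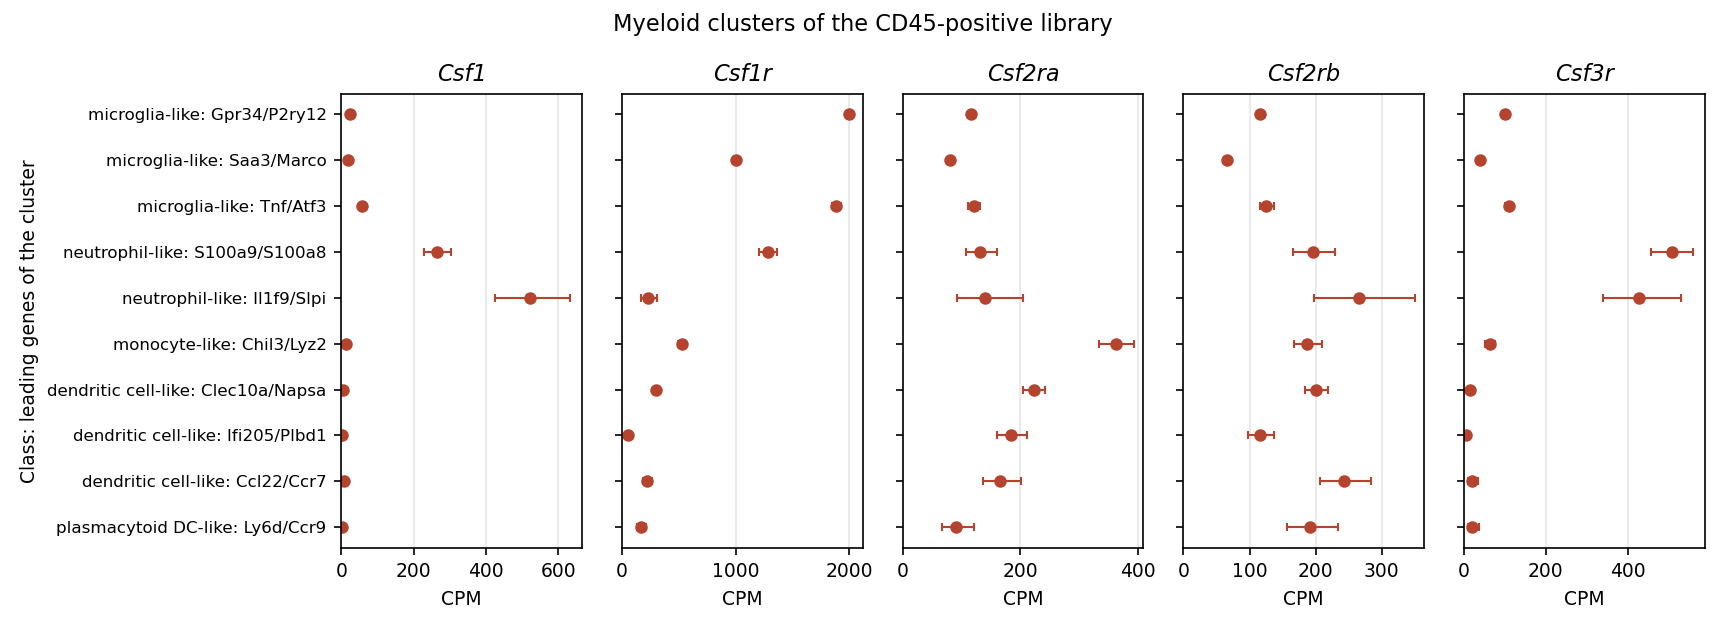
Level (CPM, linear axes from 0) of Csf1 and the 4 receptor chains in named myeloid clusters of at least 50 cells of the CD45-positive library, with exact 95% Poisson intervals as bars. Csf1 and Csf3r stand out in the neutrophil-like clusters and Csf2ra in monocyte-like cells at 363 CPM. Csf1r is highest in the microglia-like clusters led by Gpr34 and by Tnf. The Saa3 cluster, at 1007 CPM of Csf1r, lies below the neutrophil-like cluster led by S100a9.

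Microglia-like cells allowed the genes to be read in the same class of both libraries, 3139 cells in the CD45-positive and 87 cells in the CD45-negative library. Csf1r differed little, with 1669 CPM in CD45-positive and 1550 CPM in CD45-negative cells (ratio 1.08, 1.01 to 1.15). Csf2ra with 105 and 91.7 CPM and Csf2rb with 101 and 123 CPM did not differ beyond counting error. Csf3r was higher in CD45-positive cells, at 82.3 CPM against 52.9 CPM in CD45-negative cells (ratio 1.55, 1.09 to 2.31), the CD45-negative level resting on 30 UMIs. Csf1 was lower in CD45-positive cells, at 26.9 against 54.7 CPM (2.03-fold), and in the Saa3 cluster alone at 18.0 CPM in 1270 cells against 78.7 CPM in 67 cells (4.36-fold). The comparison within the Saa3 cluster rests on 19 UMIs in CD45-negative cells. In the whole CD45-negative class the 31 Csf1 UMIs lay in 14 of 87 cells, with up to 10 in a cell. Those 14 cells had a median of 16015 UMIs, and the others 1300 UMIs. After thinning, Csf1 was found in 0% of the 52 CD45-negative cells deep enough. Both Csf1 differences thus rest on few, deep cells. Most of the 87 CD45-negative cells, 67 of them, were in the Saa3 cluster, so the class had another make-up in that library. Astrocyte-like cells, 75 in the CD45-positive and 5247 in the CD45-negative library, had 67.0 CPM of Csf1 in CD45-positive and 85.4 CPM in CD45-negative cells, not beyond counting error (ratio 0.785, 0.497 to 1.18). Their Csf1r was 78.3-fold higher in CD45-positive cells, at 146 against 1.86 CPM. Microglia markers summed to 2352 CPM in CD45-positive and 1284 CPM in CD45-negative astrocyte-like cells. Per 1000 marker UMIs there were 62.0 Csf1r UMIs in CD45-positive and 1.45 in CD45-negative astrocyte-like cells, beside 142 in CD45-negative microglia-like cells. The marker sum of CD45-negative astrocyte-like cells thus did not follow Csf1r and cannot be read as microglia transcripts alone.

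Il34, the other ligand of Csf1r (chromosome 8, 110741829 to 110805924, minus strand, overlapping Gm15894 and Gm15895 on the opposite strand), was a mural cell transcript in these data. Pericyte-like cells had 506 CPM (484 to 529), with a UMI in 75.0% of 1051 cells, and held 66.9% of the CD45-negative library's Il34 UMIs. Smooth muscle-like cells had 496 CPM (447 to 550), not beyond counting error of the pericyte-like level (ratio 1.02, 0.911 to 1.14), and were positive in 136 of 160 cells. The unnamed cluster led by Dcn and Rdh10, which carries pericyte and fibroblast markers, had 278 CPM, and fibroblast-like cells had 216 CPM. The wall cells of vessels thus held Il34 at levels far above those of glia and endothelium. Oligodendrocyte-like, neuroblast-like, astrocyte-like and endothelial-like cells, in falling order, had between 3.83 and 2.00 CPM. No neighbours in that order lay apart by more than counting error, but classes further apart in it were not compared. Neuroblast-like cells, the background class, had a UMI in 1.84% of cells.

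The 3 pericyte-like clusters of at least 50 cells had Il34 levels of 530, 520 and 456 CPM, close to each other and to the class as a whole. In the CD45-positive library 19 of 21 Il34 UMIs lay in a class of 12 pericyte-like cells, and 0 of 3139 microglia-like and 0 of 2361 T cell-like cells had a UMI, which allows up to 0.0956% and 0.127% of cells. Transcripts of the Csf1r ligands thus lay in largely different classes. Those of Csf1 came mainly from oligodendrocyte-like and astrocyte-like cells, and those of Il34 from pericyte-like and smooth muscle-like cells. Neurons, known as the main source of Il34 in the forebrain, were represented by 30 neuron-like cells with 7 Il34 UMIs, too few to describe.

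Csf2, the ligand of granulocytes, monocytes and dendritic cells (chromosome 11, 54247271 to 54249667, minus strand, overlapping Gm12223 on the opposite strand), came mainly from 1 lymphoid cluster. This cluster of 253 CD45-positive cells, named type 2 innate lymphoid-like, had 338 CPM (313 to 365) and held 92.1% of all Csf2 UMIs, in 62 cells (24.5%). That level was 40.1-fold higher (21.7 to 84.1) than the 8.43 CPM of NK cell-like cells, which rest on 10 UMIs, and T cell-like cells had 1.28 CPM from 15 UMIs in 13 of 2361 cells. Microglia-like cells, taken as a class that lacks it, had 0.535 CPM with a UMI in 0.382% of cells. Csf2 was not detected in 198 monocyte-like or 140 neutrophil-like cells, which allows up to 1.52% and 2.14% of cells. The UMIs piled up in few cells, with up to 72 in a cell and 64.7% in the 10 highest.

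The cluster's name is a limit on this result. Gata3 and Il1rl1, a transcription factor and the interleukin 33 receptor of type 2 cells, were detected in 70.4% and 64.4% of its cells, and Calca, a neuropeptide gene, in 64.0%. T cell receptor complex transcripts were present too: Trbc2 in 75.1%, Cd3g in 56.1%, Cd3e in 28.9%, the gamma chain gene Tcrg-C1 in 37.5% and the delta chain gene Trdc in 19.4% of cells. Cells of the type 2 innate lymphoid kind and T cells of the gamma delta or type 2 kind were therefore not separated by this cluster. In 230 cells with at least 1 UMI of 8 such transcripts Csf2 had 340 CPM (315 to 367), and in 23 cells with none it had 289 CPM (181 to 438), but the cells with none had a median of 1772 UMIs against 7194.

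Transcripts of other cytokines were set beside Csf2 in the cells of this cluster. Il5, an eosinophil growth factor, was found in 24.2% of cells with Csf2 and 6.81% of cells without it, Il13 in 4.84% and 0.524%, and Areg, a ligand of the epidermal growth factor receptor, in 30.6% and 13.1%. Gata3 was found in 83.9% of cells with Csf2 and 66.0% of cells without it, and Cd3e in 22.6% and 30.9%. Depth moved with these shares, with a median of 11025 UMIs in cells with Csf2 and 6040 UMIs in cells without it, and Calca, which is no cytokine of lymphocytes, was likewise found in 75.8% and 60.2%. The part of depth was not tested. Il17a, the cytokine of type 17 cells, had 317 UMIs in 14 cells of the cluster, so its cytokine transcripts were not of the type 2 kind alone. Across classes the genes most like Csf2 were Il17a, Il13, Tcrg-C1, Cd163l1 and Trdc, with Pearson r between 0.91 and 0.96 over 18 classes, values that rest on this single cluster. Il13 is also on the marker list that named it.

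Csf3, the neutrophil growth factor (chromosome 11, 98701263 to 98703629, plus strand), was found in vessel-associated cells of the CD45-negative library. Endothelial-like cells had 32.9 CPM (28.6 to 37.6) and held 52.3% of its UMIs in 25 of 1428 cells, and the cluster led by Dcn and Rdh10 had 183 CPM (156 to 212) and held 42.1% in 11 of 348 cells. All other classes of at least 50 cells had at most 2.23 CPM, and astrocyte-like cells had 0.310 CPM. Csf3 was thus a transcript of few cells at high copy, with up to 62 UMIs in a cell and 69.9% of UMIs in the 10 highest. Neuroblast-like cells, the background class, had a UMI in 0.184% of cells. No Csf3 was detected in 3139 microglia-like cells of the CD45-positive library, which allows up to 0.0956% of cells.

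Endothelial-like cells with Csf3 more often carried transcripts known from inflamed and venous endothelium. Of the 25 cells with Csf3, 22 had Lcn2, an acute-phase protein, 15 had Icam1 and 7 had Sele, adhesion molecules for leukocytes, and 13 had Ackr1, a chemokine-binding receptor of venules. Of the 1403 endothelial-like cells without Csf3, 27.7% had Lcn2, 16.5% Icam1, 2.57% Sele and 4.49% Ackr1. Csf1 went the same way, in 56.0% of cells with Csf3 and 15.9% of cells without it. Of the other genes set beside Csf3, Vcam1, Selp and Cxcl1 were also found more often in endothelial-like cells with Csf3. Ccl2 differed little, at 4.00% and 2.71%, and Il6 and Il34 were found in 0% of cells with Csf3. In the cluster led by Dcn and Rdh10, 9 of 11 cells with Csf3 had Il6 and 10 had the neutrophil chemokine Cxcl1, beside 14.2% and 16.3% of the 337 cells without Csf3. Vcam1, at 9.09% and 5.34%, and Il34, at 45.5% and 38.0%, differed less there. The Il34 level was lower in cells with Csf3, at 82.8 against 301 CPM. Depth moved with these shares: cells with Csf3 had medians of 7258 UMIs in the endothelial-like class and 8888 UMIs in the cluster led by Dcn and Rdh10, and cells without it 4434 and 1082 UMIs. Its part was not tested.

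**Figure D5:**
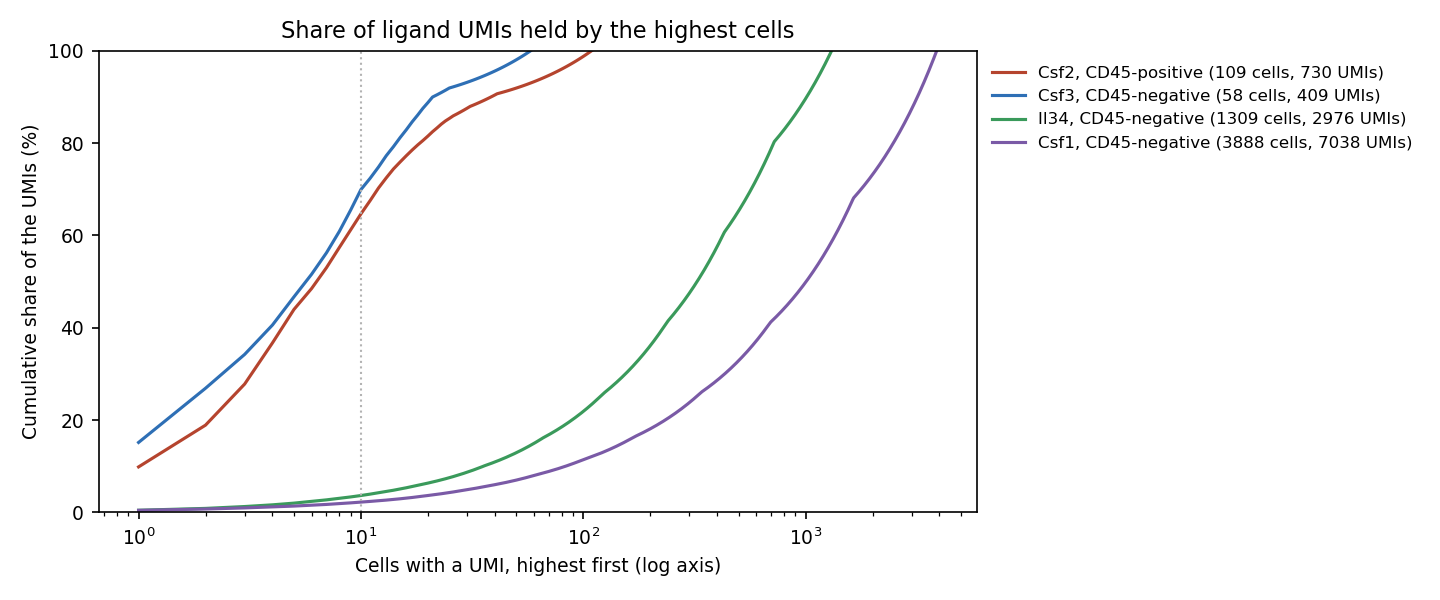
Cumulative share of a ligand's UMIs (%) against the number of cells with a UMI, highest cells first (log axis), in the library where the ligand is higher, with a dotted line at 10 cells. The 10 highest cells hold 64.7% of Csf2 and 69.9% of Csf3 UMIs but 3.66% of Il34 and 2.23% of Csf1 UMIs.

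The genes most like each member were taken across named classes, with unnamed clusters left out. Over the 18 classes, Csf1r was most like Trem2, C1qb, Cx3cr1, Ccl12 and Ctss (Pearson r 0.98 to 0.99), all known from microglia. Trem2 and Cx3cr1 are on the marker list that named the microglia-like class, so their likeness is no separate support. Il34 was most like B130024G19Rik, Kirrel, Bmp5, Cd248 and Gpc3, and Csf3r most like Il1a, Hk3, Hcar2, Fcgr4 and Tlr13. Csf2ra went with Card9, Btk, Rab32, Clec4a1 and Ccl9 at up to 0.92, and Csf2rb with Alox5ap, Card9, Spi1, Btk and Tifab at 0.98. Csf1 had no close companion, the best being Cpeb2 at 0.85, and Csf3 went with Gata2, Sele, Sox17, Meox1 and Clec14a at 0.89 to 0.92. The cluster led by Dcn and Rdh10, highest for Csf3 at 183 CPM, was among those left out. The Csf3 values therefore rest mainly on endothelial-like cells, at 32.9 CPM. All these correlations are descriptions over classes that share libraries, with no test.

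The wider pathway was described with 57 further genes, of which 53 had at least 20 UMIs: 30 were at least 4-fold higher in CD45-positive cells, 4 were lower and 19 neither. Their median log2 ratio was 2.49, beside -0.58 over all genes, of which 9.88% were called higher and 29.7% lower. Among genes that share the beta chain, Il3ra, the interleukin 3 receptor alpha chain, had 9.99 CPM in CD45-positive and 2.60 CPM in CD45-negative cells. Il5 had 101 UMIs and 0, at least 37.6-fold higher in CD45-positive cells, Il5ra had 7 and 2 UMIs, and Il3 had no UMI in either library. Of receptors other than Csf1r named for Il34, Ptprz1, a phosphatase of glia, had 7.59 CPM in CD45-positive and 575 CPM in CD45-negative cells, the syndecan gene Sdc1 2.69 and 7.98 CPM, and Trem2 680 and 9.49 CPM. Ptprz1 and Trem2 therefore lay on opposite sides, and Sdc1 was under the 4-fold call.

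Among other blood growth factors and their receptors 3 of 10 tested genes were higher and 3 lower, a share lower that is the background's. Kitl, the stem cell factor, had 9.49 CPM in CD45-positive and 65.0 CPM in CD45-negative cells, and its receptor Kit 8.23 and 35.4 CPM. Il7r, a lymphocyte receptor chain, had 121 CPM in CD45-positive and 0.969 CPM in CD45-negative cells, and Crlf2 108 and 19.2 CPM. Below the receptors, 9 of 18 signalling genes were higher and 0 lower. Lyn, a kinase of the Src family, had 338 CPM in CD45-positive and 20.7 CPM in CD45-negative cells and the adaptor Tyrobp 1889 and 41.4 CPM, whereas the widely expressed Jak1 with 201 and 91.0 CPM and Grb2 with 176 and 102 CPM stayed under 4-fold.

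Of the feedback and early target genes 6 of 9 were higher, 0 lower. Socs3, an inhibitor of cytokine signalling, had 227 CPM in CD45-positive and 48.2 CPM in CD45-negative cells and the survival gene Bcl2a1b 303 and 7.30 CPM, while Mcl1 with 386 and 177 CPM and Bcl2l1 with 48.2 and 166 CPM were not called. Of the myeloid transcription factors 9 of 10 were higher, 0 lower. Spi1 had 335 CPM in CD45-positive and 7.39 CPM in CD45-negative cells, Maf 274 and 19.7 CPM, and Cebpb 585 and 86.9 CPM. Fewer cells of a type and less RNA per cell cannot be told apart in these library-wide sums.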

How the data were processed

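Single-cell RNA sequencing of dissociated mouse brain gave a CD45-positive and a CD45-negative library, made per the labels' protocols with 10x Genomics 3' v3 reagents. The deposited values are raw UMI counts per gene and barcode. Reads had been processed with Cell Ranger 6.1.2 on mm10, per the submitters' processing notes. The sources used here give no cell-calling settings. Only transcript ends are counted by a 3' assay, so isoforms could not be separated. Gene positions were taken from GENCODE M21 (GRCm38), matched on gene ID.

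The deposited count tables held 8662 CD45-positive and 14524 CD45-negative barcodes. Barcodes with at least 500 UMIs, 200 genes and at most 20% mitochondrial UMIs were kept, and Scrublet calls were removed (177 CD45-positive, 876 CD45-negative), which left 97.3% and 88.2% of barcodes. The calls stayed below the assumed doublet rates of 6.93% and 11.6%, so doublets may remain. Both libraries were clustered together with scanpy 1.11.5 under Python 3.11.15 (2000 variable genes, 30 principal components, 15 neighbours, Leiden resolution 1, splitting at 0.5). The 8 genes, Csf2rb2 and the pathway list stayed out of the clustering. Pathway genes that are also on a marker list, such as Trem2, still served to name clusters. Clusters were called "-like" from 23 marker lists if at least 3 markers were detected in 20% of cells and no further class competed. The numbers of this naming rule were chosen with the clusters in view.

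UMIs were summed per library or class of at least 50 cells, with exact Poisson, conditional binomial or Clopper-Pearson 95% intervals. Classes of a library were compared as neighbours in the order of levels. Classes further apart in an order may differ where neighbours do not. A count of 0 was set against 3 UMIs. Cells were also thinned to 1000 UMIs, which left out 814 CD45-positive and 684 CD45-negative cells. Named were the 8 genes, Csf2rb2, the 4 genes with most UMIs of each pathway part, and the 5 genes most like each member. A gene that this rule would name is not reported here. A gene with no UMI or of small count outside this rule was chosen after its values were seen. The code was tested on simulated data. The family, the pathway genes and the marker lists were chosen with earlier results of these data known. The promoter letters, the split of the Csf2 cluster by T cell receptor transcripts, the genes set beside Csf3 and the comparison within the Saa3 cluster were added after seeing the data.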

Additional observations from a re-analysis of the deposited data

Results flagged for a closer look

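The level of Csf2ra in microglia-like cells relative to all other cells ran opposite ways in the libraries. In the CD45-positive library microglia-like cells had 105 CPM and the other cells 111 CPM, a ratio of 0.946 (0.905 to 0.989). In the CD45-negative library microglia-like cells had 91.7 CPM and the other cells 14.0 CPM, a ratio of 6.55 (4.86 to 8.64). The other cells of the CD45-positive library included monocyte-like cells at 363 CPM and dendritic cell-like cells at 204 CPM, and those of the CD45-negative library were mostly astrocyte-like and oligodendrocyte-like cells at 18.7 and 8.73 CPM. With 1 library on each side the difference was not tested.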

How the results depend on the processing

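No paired analysis was possible because each group had 1 library and no result came from a test. The calls between libraries, 5 genes higher and 2 lower in CD45-positive cells, were the same with median-of-ratios or TMM scaling, all deposited barcodes, doublets kept, a stricter cell filter, and shared barcodes left out. The last of these was chosen after seeing the data. Scaling moved the median log2 ratio of all genes to -0.05 or -0.11, against -0.58. The named class with the highest level remained for 4 of 8 genes under the stricter cell filter (at least 1000 UMIs, at most 10% mitochondrial UMIs) and for 5 of 8 with each cell thinned to 1000 UMIs, and for 6 to 8 of 8 in the other 6 alternatives. Under the stricter filter 0 cells were named neutrophil-like, so Csf3r was highest in microglia-like cells (82.4 CPM) and Csf2rb in dendritic cell-like cells (191 CPM), Il34 in smooth muscle-like cells (521 CPM) and Csf3 in pericyte-like cells (37.4 CPM). Thinned, Csf1 was highest in oligodendrocyte-like cells (130.3 CPM, fibroblast-like 89.7), Il34 in smooth muscle-like cells (525 CPM) and Csf2rb in plasmacytoid dendritic cell-like cells (224 CPM). At clustering resolution 0.5, 36 cells were named neutrophil-like, and Csf3r was highest in microglia-like cells (82.1 CPM) and Csf2rb in monocyte-like cells (189.7 CPM). With each library clustered alone, the neutrophil-like class took in 424 cells and its Csf3r level was 252 CPM, against 491 CPM. The leading classes of Csf1r, Csf2 and Csf2ra were the same in all 8 alternatives. With 30 neuron-like cells, the number of cells allowed no description of that source.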
